A study of Homo sapiens with 4 samples.

Results

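Transcripts of 9 genes that control the elongation kinase P-TEFb were followed in MOLM-14, an established cell line of human acute myeloid leukemia, after exposure to the drug DZNep or to its solvent. The genes were HEXIM1, HEXIM2, CDK9, CCNT1, CCNT2, LARP7, MEPCE, AFF4 and ELL2, and each was read from the probe set that carries its symbol alone and has the highest mean log2 intensity over the 4 arrays. This gave values for 8 of the 9 genes, among 18377 genes with such a probe set. LARP7 lies only in a probe set that carries a further symbol, and its level is not analysed here. The 4 samples, labelled biological replicates, were 2 with DMSO and 2 with 2 µM DZNep, all treated for 24 h, and RNA was read on Affymetrix whole-transcript arrays. DZNep, 3-deazaneplanocin A, inhibits S-adenosylhomocysteine hydrolase and so interferes with methyltransferases broadly. The line carries a fusion of KMT2A with MLLT3, a subunit of elongation complexes, and stands here for a single leukemia with no non-leukemic control. The labels do not say whether replicates came from separate cultures, so errors and p-values reflect spread that could be technical.

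RNA polymerase II pauses shortly after it starts a transcript, and P-TEFb, the kinase CDK9 bound to cyclin T1 or T2 (CCNT1, CCNT2), releases it by phosphorylating the polymerase tail and the pausing factors NELF and DSIF. Much of the P-TEFb in a cell is held inactive in a particle built on the small nuclear RNA 7SK, which MEPCE caps, LARP7 stabilises, and through which HEXIM1 or its homologue HEXIM2 blocks the kinase. Active P-TEFb is carried by bromodomain proteins and by the super elongation complex, in which AFF4 is the scaffold and ELL2 an elongation factor. HEXIM1 is known to be induced by hexamethylene bisacetamide, for which it is named, and by inhibitors of BET bromodomain proteins.

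HEXIM1 and HEXIM2 are neighbours in the same orientation on chromosome 17, at chr17:45148475-45152099 and chr17:45160174-45170040 in the RefSeq annotation of GRCh38.p14, and CDK9 lies at chr9:127786034-127790792. The 250 bases upstream of their RefSeq starts were compared, because HEXIM1 and CDK9 had the largest differences among the 8 genes and HEXIM2 had a small difference beside HEXIM1. All are on the plus strand and taken from RefSeq, GRCh38.p14, and HEXIM2 has a pair of annotated starts. Capitals mark matches, on either strand, to the TATA box (TATAAA), the CCAAT box, the GC box (GGGCGG) or the E-box (CACGTG).
HEXIM1 (chr17:45148225-45148474): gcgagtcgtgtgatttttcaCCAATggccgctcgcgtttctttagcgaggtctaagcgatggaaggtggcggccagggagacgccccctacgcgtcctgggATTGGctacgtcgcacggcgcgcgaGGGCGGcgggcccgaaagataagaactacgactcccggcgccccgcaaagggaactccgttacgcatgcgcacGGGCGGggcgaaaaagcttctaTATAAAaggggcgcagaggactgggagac
HEXIM2, first start (chr17:45159924-45160173): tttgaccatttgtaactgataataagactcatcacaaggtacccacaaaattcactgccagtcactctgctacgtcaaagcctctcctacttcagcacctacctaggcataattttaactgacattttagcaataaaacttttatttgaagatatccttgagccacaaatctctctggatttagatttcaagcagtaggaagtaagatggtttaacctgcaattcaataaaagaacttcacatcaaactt
HEXIM2, second start (chr17:45161625-45161874): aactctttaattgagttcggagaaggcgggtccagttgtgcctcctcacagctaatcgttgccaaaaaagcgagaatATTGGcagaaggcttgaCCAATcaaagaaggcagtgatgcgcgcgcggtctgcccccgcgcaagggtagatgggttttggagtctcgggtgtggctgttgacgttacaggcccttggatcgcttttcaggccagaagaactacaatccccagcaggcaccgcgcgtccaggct
CDK9 (chr9:127785784-127786033): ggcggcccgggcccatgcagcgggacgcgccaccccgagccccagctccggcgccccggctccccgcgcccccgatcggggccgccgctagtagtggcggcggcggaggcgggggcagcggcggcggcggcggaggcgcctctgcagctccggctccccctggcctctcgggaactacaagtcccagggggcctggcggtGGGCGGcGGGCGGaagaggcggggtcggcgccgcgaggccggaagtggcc

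The HEXIM1 window held 1 TATA box match, 29 to 24 bases before the start, together with 2 CCAAT box and 2 GC box matches and 31 CpG dinucleotides. A TATA box match on either strand occurred in 10.7% of the 35116 windows of this length in the table, a CCAAT box match in 32.0%, a GC box match in 42.6% and an E-box match in 6.34%. No TATA box match was found in the other 12 windows of these genes, which cover CDK9, CCNT1, CCNT2, LARP7, MEPCE, AFF4 and HEXIM2. ELL2 had no window among those used and was not searched. The window at the first HEXIM2 start had 1 CpG and none of the motifs searched, and the window at the second had 16 CpG and 2 CCAAT box matches. CDK9 had 37 CpG and 2 GC box matches, 50 to 45 and 43 to 38 bases before the start. The matches capitalised in these windows did not overlap. They describe the letters only.

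The 9 genes were chosen by their known roles with the log2 differences of this comparison already in view, so their DZNep minus DMSO differences are given as a description, with limma's standard error (SE) or 95% interval and with no p-value. HEXIM1 was 2.05-fold higher with DZNep, and CDK9 was higher by a smaller amount. ELL2 was higher on its brighter probe set and not on its dimmer one. AFF4 was higher by an amount that hung on a single DMSO array, and HEXIM2, CCNT1, CCNT2 and MEPCE differed little. All 8 differences were above 0, from 0.03 to 1.04 on the log2 scale, with a median of 0.14 against 0.02 over all 18377 genes. By the call rule of the fit over all genes (limma, Benjamini-Hochberg adjusted p under 0.05), 2 of the 8, HEXIM1 and CDK9, fell among the genes called higher and 0 among those called lower, where 3.62% of all genes were called higher and 6.68% lower. At an unadjusted limma p under 0.05, 3 members were higher and 0 lower, where 4076 of all 18377 genes had such a p, higher or lower. Both DZNep arrays lay above both DMSO arrays for 4 of the 8, where this held for 25.9% of all genes. Because the members were chosen with this contrast in view, these counts are no test of the members and nothing is read from them. In RNA of whole cultures, a change in every cell and a change in the share of cells that express a gene cannot be told apart.

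HEXIM1, the inhibitor, had log2 intensities of 8.92 and 8.70 with DMSO and 9.87 and 9.84 with DZNep, or 485.5, 416.1, 933.1 and 914.1 on the linear scale. The DZNep arrays differed by 0.03 and the DMSO arrays by 0.22, and the lowest DZNep value lay 0.91 above the highest DMSO value. The group means were 8.81 ± 0.16 and 9.85 ± 0.02 (SD, n = 2 arrays each), a difference of 1.04 (SE 0.11), or 2.05-fold. Of all genes, 53 had a larger rise. Leaving out any array kept the difference between 0.93 and 1.15.

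HEXIM2, which can take the place of HEXIM1 in the 7SK particle, had log2 intensities of 7.74 and 7.89 with DMSO and 7.77 and 7.95 with DZNep. The groups overlapped, and the arrays of a group differed by more than the groups did. The difference was 0.05 (SE 0.11, 95% interval −0.20 to 0.29), and it turned to −0.03 without DMSO replicate 1 and −0.04 without DZNep replicate 2.

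**Figure D1:**
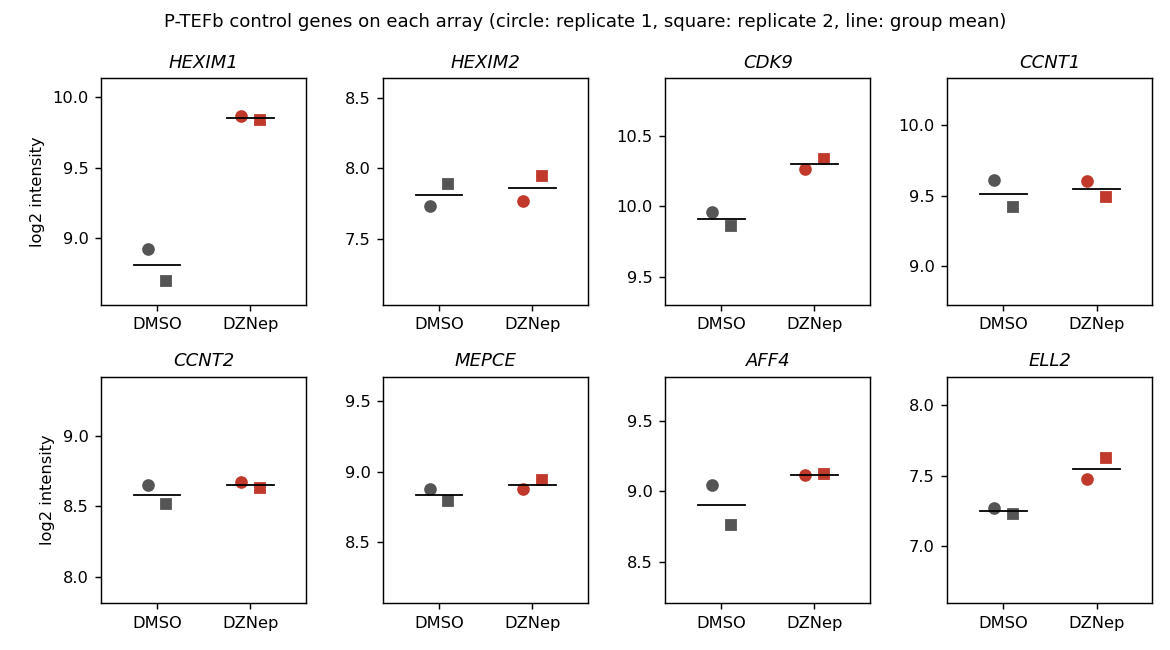
Log2 intensity (vertical axis, each panel spanning the same log2 range) of the 8 measured genes on the 4 arrays, with circles for replicate 1, squares for replicate 2 and lines for group means. HEXIM1 shows the widest gap, 8.70 to 8.92 with DMSO and 9.84 to 9.87 with DZNep, while HEXIM2, CCNT1, CCNT2 and MEPCE overlap between the groups.

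CDK9, the kinase subunit, had log2 intensities of 9.96 and 9.86 with DMSO and 10.27 and 10.33 with DZNep. The arrays of each group lay within 0.10 of each other and the groups did not overlap, with a gap of 0.30. The means were 9.91 ± 0.07 and 10.30 ± 0.05 (SD, n = 2 arrays each), a difference of 0.39 (SE 0.10), or 1.31-fold. The difference was 0.34 without DMSO replicate 2, 0.42 without DZNep replicate 1 and 0.35 without DZNep replicate 2, and in these 3 fits, with 16 subtracted from every intensity and with every probe set tested (0.39 in each), CDK9 was not among the genes called higher.

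The cyclin partners of CDK9 did not separate by group. CCNT1 had 9.61 and 9.42 with DMSO and 9.60 and 9.49 with DZNep in log2 intensity, a difference of 0.03 (SE 0.11, 95% interval −0.21 to 0.27). Its sign turned without DMSO replicate 2 (−0.06) or DZNep replicate 1 (−0.02). CCNT2 had 8.65 and 8.52 with DMSO and 8.67 and 8.63 with DZNep, a difference of 0.07 (SE 0.10, 95% interval −0.15 to 0.29), which was −0.0004 without DMSO replicate 2. For both cyclins DMSO replicate 1 was the higher control and lay close to the DZNep arrays.

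MEPCE, the capping enzyme of 7SK, had log2 intensities of 8.88 and 8.79 with DMSO and 8.88 and 8.94 with DZNep. DZNep replicate 1 and DMSO replicate 1 were nearly equal, and the difference was 0.07 (SE 0.10, 95% interval −0.14 to 0.29). The 7SK RNA itself, RN7SK, lies in a probe set that carries a further symbol and was not analysed here.

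AFF4, the scaffold of the super elongation complex, had log2 intensities of 9.05 and 8.76 with DMSO and 9.12 and 9.12 with DZNep. The DZNep arrays were within 0.005 of each other and 0.07 above the higher DMSO array, while the DMSO arrays were 0.29 apart. The difference of 0.21 (SE 0.11, 95% interval −0.04 to 0.47) became 0.07 without DMSO replicate 2 and 0.36 without DMSO replicate 1.

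ELL2, its elongation factor, had log2 intensities of 7.27 and 7.23 with DMSO and 7.47 and 7.63 with DZNep. The groups did not overlap, with a gap of 0.20, and the difference was 0.30 (SE 0.10, 95% interval 0.08 to 0.52), or 1.23-fold. A further, dimmer probe set with this symbol alone had 6.68 and 6.66 with DMSO and 6.79 and 6.49 with DZNep, a difference of −0.03. The mean over both probe sets differed by 0.13. Whether the dimmer probe set reads the same locus as the brighter one was not checked.

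**Figure D2:**
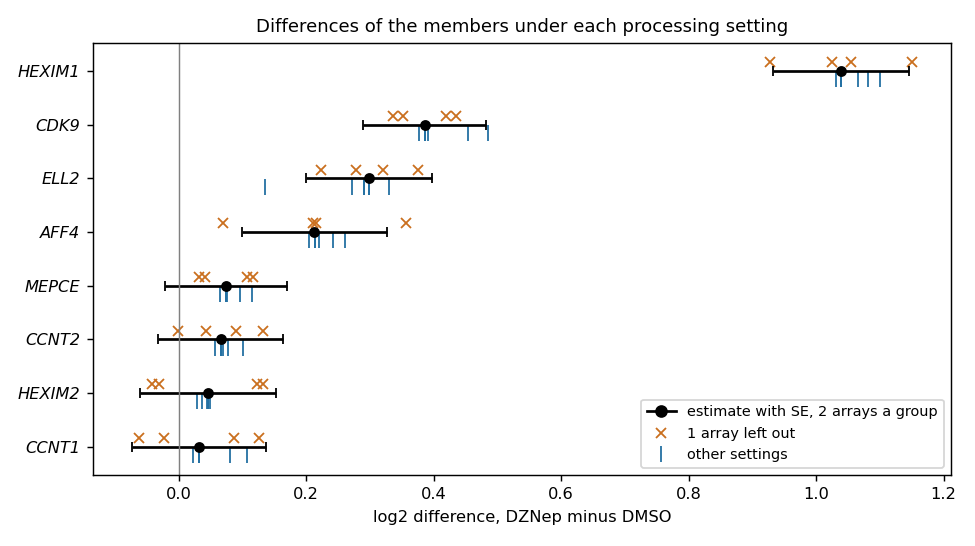
Log2 difference, DZNep minus DMSO (horizontal axis), of each measured gene with its SE (black), with each array left out in turn (crosses) and under the other settings (ticks). HEXIM1 stays between 0.93 and 1.15 in all of them, AFF4 spreads from 0.07 to 0.36, and HEXIM2, CCNT1 and CCNT2 fall on both sides of 0 when an array is left out.

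The genes around HEXIM1 were looked at because they share its chromosomal setting and had not been used to choose it. The 5 measured genes on each side start between 188.8 kb before and 114.6 kb after the HEXIM1 start, and HEXIM2 is among them. Of the 9 neighbours other than HEXIM2, 0 were called higher and 0 lower by limma, where 3.62% and 6.68% of all genes were. At an unadjusted p under 0.05, which 4076 of all 18377 genes had in either direction, 1 was higher and 1 lower. With so few genes, nothing is read from these counts. The differences of the neighbours ran from −0.32 for NMT1, an N-myristoyltransferase (limma adjusted p = 0.0664), to 0.26 for FMNL1, a leukocyte formin (limma adjusted p = 0.155). NMT1 had 9.82 and 9.73 with DMSO and 9.48 and 9.42 with DZNep, and passed the threshold without DMSO replicate 2 at −0.37 (limma adjusted p = 0.0474), with an intensity trend (0.0141), with the crossed replicate block (0.0408) and without the dimmest 50% of genes (0.0263).

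**Figure D3:**
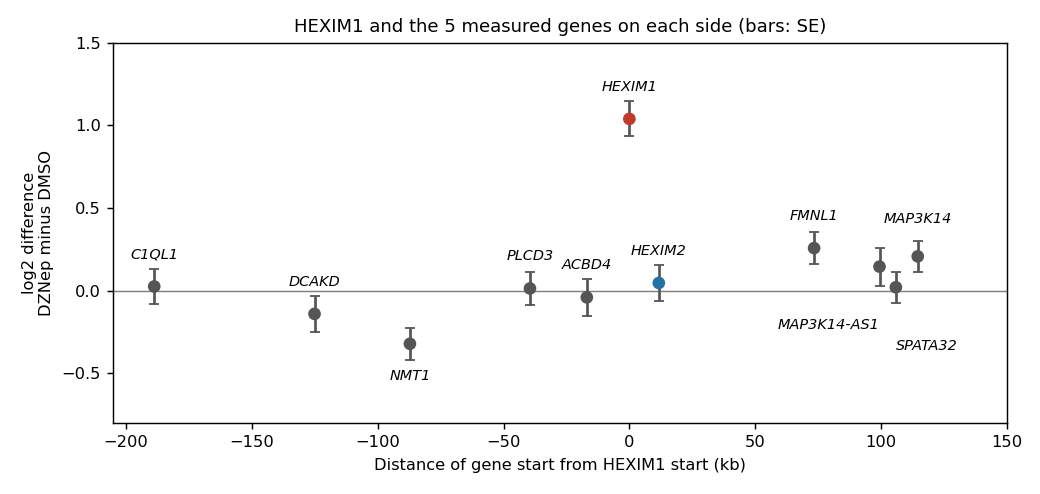
Log2 difference, DZNep minus DMSO, with SE (vertical axis) against the distance of each gene's start from the HEXIM1 start in kb (horizontal axis). HEXIM1 stands at 1.04, HEXIM2 at 0.05 lies 11.7 kb downstream, and the other 9 genes lie between −0.32 and 0.26.

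The genes whose values over the 4 arrays were most like those of HEXIM1, by Euclidean distance after subtracting each gene's DMSO mean, were the scavenger receptor CD36, the transcription factor ETS2, the adhesion molecule PECAM1, the cannabinoid receptor CNR2 and the carbonic anhydrase CA2. Their distances were between 0.02 for CD36 and 0.11 for CNR2 and CA2, on the log2 scale over 4 arrays. CD36 had 9.05 and 8.82 with DMSO and 9.97 and 9.95 with DZNep. Like HEXIM1, it had the higher control value in DMSO replicate 1 and near-equal DZNep values. These 5 genes had differences of 0.97 to 1.08, which the search for likeness to HEXIM1 fixed.

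Other genes of the pathway were read from 10 lists of 125 genes that were not used to choose the members, of which 118 were measured. The lists were drawn up with earlier results of these data known, so their counts are a description and no test. The rest of the elongation machinery made up 8 of the lists, with 96 measured genes. Of these 96, 3 were higher (3.12%, against 3.62% of all genes) and 10 were lower (10.4%, against 6.68%) by limma's adjusted p over all genes, and their median difference was −0.025 against 0.02 over all genes. The higher count was 1 without DZNep replicate 2, and the lower count was 6 without DMSO replicate 1 and 5 without either DZNep array. The other 2 lists were markers of BET inhibition and short-lived transcripts that CDK9 inhibitors lower. Of their 22 measured genes, 6 were higher (27.3%, against 3.62% of all genes) and 1 was lower (4.55%, against 6.68%). Counts at an unadjusted p under 0.05 are also given below, a threshold that 4076 of all 18377 genes passed in either direction. With every probe set on the array tested, the calls of TCEA1, EAF1, SETD2, CDK7, POLR2D, INTS3, JUN, FOS and MYB described next ended (limma adjusted p of 0.0518 to 0.0912), and with 16 subtracted from every intensity the same calls except that of TCEA1 ended (0.0535 to 0.1).

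Among 17 measured 7SK-binding proteins, P-TEFb release factors and BET proteins, 1 was lower and 0 were higher (limma, with 3 and 1 at an unadjusted p under 0.05), and the median was 0.00. The gene was HNRNPR, an RNA-binding protein found on 7SK freed of HEXIM1, with 10.89 and 10.90 under DMSO and 10.27 and 10.17 under DZNep, a difference of −0.68 (limma adjusted p = 0.00235). It was called in all alternatives run. Among 12 other genes of the super and little elongation complexes, 2 were lower and 0 higher (limma, with 3 and 1 at an unadjusted p under 0.05), and the median was −0.12. EAF1, a partner of ELL proteins, had 9.10 and 8.94 against 8.59 and 8.56, a difference of −0.45 (limma adjusted p = 0.0217), and was no longer called when DMSO replicate 1 (−0.37, adjusted p = 0.0588), DZNep replicate 1 (−0.46, 0.0874) or DZNep replicate 2 (−0.43, 0.126) was left out. ZC3H8, a little elongation complex subunit, had 8.55 and 8.39 against 7.94 and 7.75, a difference of −0.63 (limma adjusted p = 0.00702). Of this list, 3 more were singled out after their values were seen. AFF1, the homologue of AFF4, had a difference of 0.21 (limma adjusted p = 0.269). MLLT3, the fusion partner of KMT2A in this line, had −0.24 (limma adjusted p = 0.267), and −0.40 without DMSO replicate 2. Whether the MLLT3 probe set also reads the fusion transcript was not checked. ICE1, the scaffold of the little elongation complex, had 0.33 (limma adjusted p = 0.0651) and passed under quantile normalization (0.026), cyclic loess normalization (0.0325), an intensity trend (0.0254), the crossed replicate block (0.0324) and the filters on the dimmest 25% and 50% of genes (0.049 and 0.0261).

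SUPT4H1, the small subunit of DSIF, was the 1 gene called among 5 measured subunits of NELF and DSIF. It had 9.42 and 9.39 with DMSO and 10.04 and 10.14 with DZNep, so the arrays of each group lay close together, and the difference was 0.69 (limma adjusted p = 0.00229). The list's median was 0.04, and 2 of its genes were higher and 0 lower at an unadjusted limma p under 0.05. Among 18 genes of the PAF1 complex and other elongation factors, 1 was higher and 3 lower, with a median of −0.07, or −0.15 to 0.02 with an array left out. At an unadjusted limma p under 0.05, 2 of the 18 were higher and 5 lower. Both subunits of the histone chaperone FACT were lower, SSRP1 by −0.63 (10.39 and 10.34 against 9.73 and 9.75, limma adjusted p = 0.00314) and SUPT16H by −0.45 (10.49 and 10.43 against 10.02 and 10.02, limma adjusted p = 0.0157). SUPT16H was not called in the absence of DZNep replicate 1 (−0.45, limma adjusted p = 0.105) or DZNep replicate 2 (−0.45, 0.104), nor SSRP1 under the mean over its probe sets (−0.32, 0.0605). TCEA1, the factor TFIIS that restarts stalled polymerase, had 11.69 and 11.15 against 10.61 and 10.71, a difference of −0.76 (limma adjusted p = 0.0155), with its DMSO arrays further apart than those of the other genes of this list named here and a difference of −0.49 without DMSO replicate 1. The methyltransferase SETD2, which marks histone H3 lysine 36 behind the polymerase, was higher by 0.42 (limma adjusted p = 0.0416), a call that ended when DMSO replicate 2 (0.30, 0.0923), DZNep replicate 1 (0.37, 0.255) or DZNep replicate 2 (0.48, 0.0725) was left out.

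Few other transcription kinases, polymerase subunits or Integrator subunits were called, which is not read as stability. At an unadjusted limma p under 0.05, 0 kinases or cyclins were higher and 2 lower. For polymerase subunits these counts were 1 and 1, and for Integrator 1 and 4. Both DZNep arrays lay below both DMSO arrays for 9 Integrator subunits and above them for 2, where 23.9% and 25.9% of all genes did. For the kinases and cyclins these counts were 3 and 0. CDK7, the kinase of the initiation factor TFIIH, was the 1 of 11 measured kinases and cyclins called, at −0.36 (limma adjusted p = 0.0469), and the call ended when DMSO replicate 1 (−0.33, 0.0935), DZNep replicate 1 (−0.31, 0.429) or DZNep replicate 2 (−0.41, 0.176) was left out, and with the replicate block (0.059). Among 12 RNA polymerase II subunits, POLR2D was lower by −0.43 (limma adjusted p = 0.0304), a call lost without DMSO replicate 1 (−0.43, 0.0765), DMSO replicate 2 (−0.44, 0.0575) or DZNep replicate 1 (−0.33, 0.364). None of 6 phosphatases of the polymerase tail passed, where CTDP1 had 0.17 and CTDSP1 0.16 (limma adjusted p of 0.36 and 0.412), and 0 of the 6 had an unadjusted p under 0.05. Among 15 subunits of Integrator, which cleaves transcripts of paused polymerase, INTS6 was higher by 0.51 (limma adjusted p = 0.00967, and 0.48 with 0.0677 without DZNep replicate 2). INTS13 was lower by −0.43 (limma adjusted p = 0.0188), a call lost without DZNep replicate 1 (−0.45, 0.105) or DZNep replicate 2 (−0.41, 0.169). INTS3 was lower by −0.41 (limma adjusted p = 0.0365), a call lost when DMSO replicate 1 (−0.33, 0.102), DZNep replicate 1 (−0.35, 0.296) or DZNep replicate 2 (−0.47, 0.0774) was left out, and at −0.25 (0.24) under the mean over its probe sets.

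**Figure D4:**
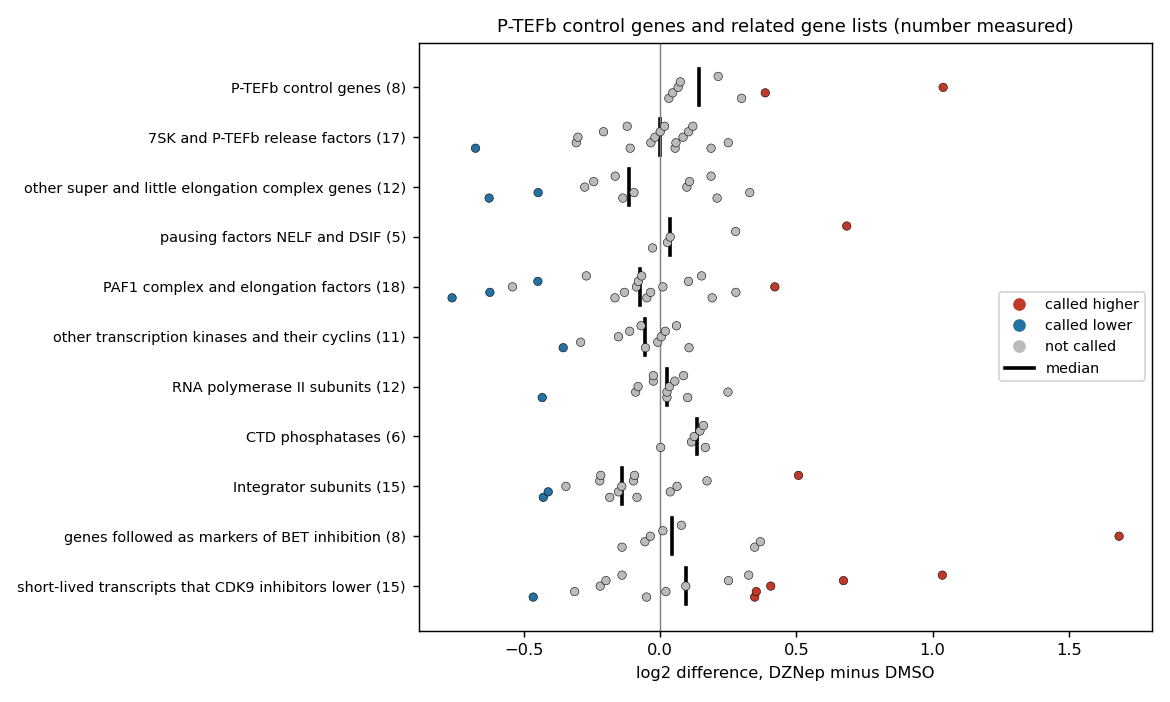
Log2 difference, DZNep minus DMSO (horizontal axis), of every measured gene in each list (rows, number measured in brackets), coloured by limma call, with a bar at the list's median. The P-TEFb control genes have a median of 0.14, and the medians of the 10 other lists lie between −0.14 for Integrator and 0.14 for the phosphatases.

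HEXIM1 is used as a blood marker of BET inhibition, and 8 further genes followed for that purpose were measured. The histone gene H2BC12 was called, with 8.06 and 7.32 under DMSO and 9.48 and 9.27 under DZNep, a difference of 1.69 (limma adjusted p = 0.00108). Its DMSO arrays were 0.74 apart, and histone genes have near-identical copies that probes may share. By limma 1 of the 8 genes was thus called higher (12.5%, against 3.62% of all genes) and 0 of the other 7 were called. In the alternatives that kept all arrays, 1 to 3 of the 8 were called higher. At an unadjusted p under 0.05, which 4076 of all 18377 genes had in either direction, 2 of the other 7 were higher. These were the histone gene H2BC21 at 0.37 (limma adjusted p = 0.0683) and the chemokine receptor gene CCR2 at 0.35 (0.0736), singled out after their values were seen. Beside MYC the rest of the list, named later too, was SERPINI1 at −0.04, ZCCHC24 at 0.01, CD180 at −0.06 and DCXR at 0.08. The median of the 8 genes was 0.04. The list was not split by the direction in which BET inhibitors move each gene, and likeness to BET inhibition was not tested. H2BC21 passed with the replicate block (0.0474), the crossed replicate block (0.0258), an intensity trend (0.027) and the filters on the dimmest 25% and 50% of genes (0.049 and 0.0288). CCR2 passed without DMSO replicate 2 (0.46, 0.0234), under the mean over its probe sets (0.40, 0.0332), with an intensity trend (0.0238), with the crossed replicate block (0.0329) and without the dimmest 50% of genes (0.0311). MYC, which BET and CDK9 inhibitors lower, had 11.15 and 11.12 with DMSO and 11.03 and 10.96 with DZNep, a difference of −0.14 (limma adjusted p = 0.46) that was −0.04 under cyclic loess and −0.0092 under quantile normalization, and was singled out after its value was seen.

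Of 15 short-lived transcripts that CDK9 inhibitors lower, 7 were higher with DZNep and 2 lower at an unadjusted limma p under 0.05. By limma's adjusted p, 5 were higher (33.3%, against 3.62% of all genes) and 1 was lower (6.67%, against 6.68%), with a median of 0.09. The higher count was 3 without either DMSO array and 2 without either DZNep array, the lower count ran from 0 without DZNep replicate 1 to 2 without either DMSO array, and the median ran from 0.05 to 0.19 with an array left out. CFLAR, the inhibitor of caspase-8 activation, had 8.54 and 8.62 with DMSO and 9.71 and 9.52 with DZNep, a difference of 1.04 (limma adjusted p = 0.000413). Under the mean over its probe sets the CFLAR difference was 0.73 (limma adjusted p = 0.00145). The early response gene IER3 had 7.43 and 7.54 against 8.17 and 8.15, a difference of 0.67 (limma adjusted p = 0.00257). The AP-1 subunit JUN was higher by 0.41 (limma adjusted p = 0.0314), which became 0.36 (0.0635) without DMSO replicate 2, 0.47 (0.0854) without DZNep replicate 1 and 0.35 (0.315) without DZNep replicate 2. The 2 further genes were FOS at 0.35 (limma adjusted p = 0.0446) and the transcription factor MYB at 0.35 (limma adjusted p = 0.045), named after their values were seen. The call of FOS ended when any array was left out (differences of 0.31 to 0.39, limma adjusted p of 0.0528 to 0.411) and that of MYB when DMSO replicate 1 or either DZNep array was left out (0.33 to 0.36, 0.0774 to 0.342). With the replicate block both calls ended as well (0.062 and 0.069). The apoptosis inhibitor BCL2 was lower by −0.47 (9.89 and 9.91 against 9.39 and 9.48, limma adjusted p = 0.0143), and at −0.42 lost its call without DZNep replicate 1 (0.149).

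The labelled cell type was checked against its markers. The 10 measured myeloid and monocytic markers had a median log2 intensity of 9.44 with DMSO. They ran from CD14 at 6.72 to the lysozyme gene LYZ at 12.24, with CSF1R at 7.52 and ITGAM at 8.19 also dim. Their summed intensity was 13360 to 13594 with DMSO and 13846 to 14167 with DZNep. Within that sum the largest terms moved in opposite directions. LYZ had intensities of 4559 and 5109 with DMSO and 7255 and 6728 with DZNep, a log2 difference of 0.53 (limma adjusted p = 0.0114, and 0.48 with 0.0706 without DZNep replicate 1). The receptor kinase gene FLT3 had 3928 and 3547 against 1955 and 1926, a log2 difference of −0.94 (limma adjusted p = 0.000535). The colony-stimulating factor receptor gene CSF1R was higher by 0.47 (limma adjusted p = 0.0128), a call that ended without DZNep replicate 1 (0.46, 0.094) or DZNep replicate 2 (0.47, 0.0769). The other 7 were not called. At an unadjusted limma p under 0.05, 4 of the 10 were higher and 2 lower. Besides the called genes these were CEBPA at 0.36, CD14 at 0.33 and CD68 at −0.38 (limma adjusted p of 0.122, 0.133 and 0.0826). Lymphoid, erythroid, epithelial and stromal lists had median log2 intensities of 6.18 to 7.19 with DMSO. Their brightest probe sets with DMSO included NKG7 at 9.95 and NCAM1 at 9.53 in the T and NK cell list and the keratin gene KRT18 at 8.93, and levels of different probe sets are not comparable in amount of RNA. Of these lists, 0 of their 23 measured genes were called by limma in either direction, where 10.3% of all genes were. At an unadjusted p under 0.05 there was 1, where 4076 of all 18377 genes passed. Differences of dim probe sets may be understated, so the lack of calls is not read as stability. The part of these markers in the differences of the P-TEFb control genes was not tested.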

How the data were processed

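The deposited values are linear intensities, 1 for each probe set on an array, made by the authors with RMA according to the submitters' processing notes. Software and version are, for RMA, not given in the sources used here. On each array the lowest value was 18.1 to 18.5, so folds of dim genes may be understated. Log2 was taken with no pseudocount, filter or further normalization. Of 28869 probe sets, 19310 have 1 symbol in the platform annotation, 1752 have several and 7807 are not listed there, and the entrez IDs of 19279 were found in RefSeq. Each gene took its brightest such probe set by mean log2.

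All 18377 genes were tested two-sided in R 4.3.3 by limma 3.58.1 (functions lmFit and eBayes, no term beside the group), with 2 residual and 7.18 prior degrees of freedom and Benjamini-Hochberg adjustment over all genes. An exact permutation test of 2 arrays against 2 cannot give a p below 0.333. The script was tested on simulated data. Members and lists were chosen with earlier results of these data known. The genes named from each list were up to 4 called genes with the largest difference, or up to 2 where none was called, and others are said to have been chosen later. Alternatives were 15 settings listed beforehand and 1, the crossed replicate block, added after seeing the data. The number of arrays limits the precision.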

Additional observations from a re-analysis of the deposited data

How the results depend on the processing

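The HEXIM1 difference kept its direction in all 16 alternatives, from 0.93 to 1.15 with an array left out and from 1.03 to 1.10 in the others. The median difference of the 8 measured members stayed above 0, from 0.07 to 0.23. CDK9 was not among the genes called in 5 alternatives, so that 1 member was called higher with 16 subtracted from every intensity and with every probe set tested, and 1 to 2 with an array left out. CCNT1 (−0.062 to 0.13), CCNT2 (−0.0004 to 0.13) and HEXIM2 (−0.042 to 0.13) changed sign among the fits that leave out an array. ELL2 was removed by the filter on the dimmest 50% of genes. Over all genes, 336 to 776 were higher and 734 to 1662 lower with an array left out, against 665 and 1227. Of the genes of all 10 lists, 9 were called higher and 11 lower, and of the 8 machinery lists 3 and 10. These counts were 5 and 7 with 16 subtracted and 5 and 6 with every probe set tested, which adds 10492 tests, and in the machinery lists 6 and 5 were then lower. The higher count over all lists was 15 with an intensity trend and 14 without the dimmest 50% of genes, and in the machinery lists 5 in both and under quantile and cyclic loess normalization. With an array left out, 4 to 7 were higher and 5 to 13 lower over all lists, and 1 to 3 and 5 to 11 in the machinery lists. Where no construction shows it, the cause was not tested.

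The replicate numbers are shared labels only. Deviations of same-numbered arrays correlated at −0.219 over genes. With the replicate block, HEXIM1 kept its difference of 1.04, 754 genes were higher and 1353 lower, and 8 and 11 list genes were called. The crossed replicate block, added after seeing the data, gave 1034 higher and 1690 lower genes.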
